A study of Mus musculus with 54 samples.

Results

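The genes Aim2, Sh3pxd2a, Usp6nl, Acoxl and Krt8 each held a CTCF site that was called as a peak in all 4 WT rescue ESC libraries and in none of the 4 ZF1 mutant rescue ESC libraries. The 5 sites were chosen by these ESC calls, so the ESC calls and the ESC peak heights are given as a description with no test. They are 5 of the 27 sites with this pattern among 8363 sites called in all 4 WT ESC libraries (0.323%), and among 55990 CTCF sites found by merging the 8 ESC lists. Throughout, such a site is called lost, which says only that no peak was called there.

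CTCF, Rad21 and Smc3 were profiled by ChIP-seq in mouse embryonic stem cells (ESCs) and in neural progenitor cells (NPCs) after 2 days of differentiation. Of the 54 samples, 44 had a peak list and 10 were inputs. The rescue lines derived from 1 E14 clone that carried mAID-eGFP on both endogenous CTCF alleles, an OsTIR1(F74G) gene at Rosa26 and an mCherry reporter at Hb9/Mnx1. Each rescue line was again 1 clone, with doxycycline-inducible Flag-Halo CTCF at the Tigre locus that was either WT or lacked the first zinc finger region (ZF1 mutant, ΔZF1). Both lines received 1 µM 5-Ph-IAA to degrade endogenous CTCF and 1 µg/ml doxycycline to induce the rescue protein for 24 hours, so the WT rescue cells were degron cells as well. Each rescue line and cell type had 4 CTCF, 2 Rad21 and 2 Smc3 libraries. NPCs of E14, Podxl pA and Grb10 pA, the last 2 being lines with a truncated RNA, had neither degron nor treatment and gave 2 CTCF and 2 Smc3 libraries each. The WT and ZF1 mutant lines each being 1 clone, clone and mutation cannot be told apart, and the labels do not say that replicates were separate cultures, though the paper's legends call them biological replicates. Peak numbers ran from 1306 to 45941 per library. Among the CTCF rescue libraries, replicates 1 and 4 were deeper than replicates 2 and 3, with a lowest background of 1.14 to 2.39 against 0.392 to 0.905 fragments under a peak. The peak names inside the 4 CTCF rescue lists labelled replicate 4 carry the number 2, and the labels were followed here.

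CTCF is a DNA-binding protein with a row of zinc fingers, of which the central ones read a conserved core motif. Cohesin, the ring complex that contains Smc3 and Rad21, extrudes chromatin loops and tends to halt at CTCF-bound sites in a manner that depends on motif orientation. ZF1 lies outside the fingers that read the core and has been linked to RNA binding. The 5 genes have unrelated known roles. Aim2 encodes a cytosolic sensor of double-stranded DNA that assembles an inflammasome. Sh3pxd2a encodes the scaffold protein Tks5 of podosomes and invadopodia, Usp6nl a GTPase-activating protein of Rab proteins in endocytosis, and Acoxl a protein related to the peroxisomal acyl-CoA oxidases. Krt8 encodes the type II keratin that pairs with keratin 18 in simple epithelia.

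Of the 5 sites, 4 lay in introns, and their sequences are shown because the motif is what CTCF reads. The Aim2 site was at chr1:173377458-173377962 (mm10), 26814 bp downstream of the start of Aim2 and 9998 bp upstream of the start of Cadm3. The Sh3pxd2a site was at chr19:47360852-47361353 and lay 103290 bp inside the gene. The Usp6nl site, at chr2:6405195-6405652, lay 82803 bp inside its gene. The Acoxl site, at chr2:128078813-128079296, lay 240156 bp from the start of Acoxl and 47006 bp upstream of Bcl2l11, which encodes the pro-apoptotic protein Bim. The Krt8 site stood apart from these, at chr15:102004156-102004617 with its summit 51 bp inside the gene, in the UTR of Krt8 and in an intron of Gm36026.

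The CTCF core motif, searched on both strands with at most 2 mismatches within 50 bp of the median WT summit, was found at 4 of the 5 lost sites. It was found at 84.8% of all 8363 sites called in the 4 WT ESC libraries, at 63% of the 27 lost sites and at 9.52% of windows 1000 bp away. The match differed from the motif at 1 base in Usp6nl, Acoxl and Krt8 and at 2 bases in Sh3pxd2a, while the closest match in Aim2 had 3 mismatches. The sequences below come from the GRCm38.p6 reference and have the matched 12 bases in capitals. Each is written on the strand that carries the match, and for Aim2, where no match met the limit, the plus strand around the summit is given without capitals. The minus strand is meant for Usp6nl and the plus strand for the others.
Aim2, chr1:173377648-173377738: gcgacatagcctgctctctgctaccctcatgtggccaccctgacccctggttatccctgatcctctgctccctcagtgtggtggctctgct
Sh3pxd2a, chr19:47361041-47361132: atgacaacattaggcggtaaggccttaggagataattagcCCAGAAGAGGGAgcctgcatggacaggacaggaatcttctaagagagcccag
Usp6nl, chr2:6405431-6405522: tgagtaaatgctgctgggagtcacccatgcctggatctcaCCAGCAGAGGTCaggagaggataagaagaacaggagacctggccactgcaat
Acoxl, chr2:128079005-128079096: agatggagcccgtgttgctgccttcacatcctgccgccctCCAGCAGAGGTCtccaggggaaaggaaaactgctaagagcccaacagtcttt
Krt8, chr15:102004389-102004418: agtggctagACACTAGAGGGCagggcctaa
The next line gives, as an example of a full match, a site elsewhere in the intronic sequence of Sh3pxd2a that all 8 ESC libraries called, on the minus strand. It is not typical. Of the 16 neighbours called in all 4 WT ESC libraries, 14 held the motif, 4 of them without mismatch, and all 16 lay at 0 to 4 mismatches.
Sh3pxd2a kept site, chr19:47337978-47338069: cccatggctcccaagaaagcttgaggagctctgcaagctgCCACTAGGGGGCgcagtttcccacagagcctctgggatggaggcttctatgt
The Usp6nl and Acoxl sites carried the same 12 bases, CCAGCAGAGGTC. None of the 5 closest matches held a CpG. The 300 bp around the summits had a GC content of 45.3% to 58% and 2 to 8 CpGs, against a median of 54.3% and 7 CpGs over the 8363 sites. Repeat-masked bases made up 49.3% of the 300 bp at Sh3pxd2a and at most 14.3% at the others, against a median of 7%.

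In WT ESCs the 5 sites ran from strong to below the middle of each library's peaks. Height is given as the fold enrichment of the authors' peak caller over its background, and the percentile as the share of the peaks of that library with a fold no higher. Aim2 had folds of 35.1, 15.9, 20.6 and 8.94 in WT replicates 1 to 4. These rested on 86, 22, 29 and 27 fragments, and their median percentile was 86. Aim2 was thus the tallest of the 5, and its median percentile was the highest of the 27 lost sites. Sh3pxd2a had folds of 17.4, 6.65, 13.1 and 8.87 on 64, 10, 20 and 40 fragments, with a median percentile of 73.3. Replicate 2 stood low there, at percentile 14.8, while the other 3 lay between 72.3 and 77.4. Usp6nl had folds of 15.3, 10.9, 5.85 and 7.09 on 38, 15, 9 and 20 fragments, with a median percentile of 56.3. Acoxl had folds of 12.5, 6.91, 10.3 and 7.37 on 39, 9, 16 and 26 fragments, with a median percentile of 54.3. Krt8 was the lowest by percentile, at 41, with folds of 15.3, 7.88, 6.85 and 6.91 on 54, 13, 11 and 28 fragments. Replicate 1 was the highest for every one of the 5 genes, and it had the most peaks of the WT ESC libraries, 43003.

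**Figure D1:**
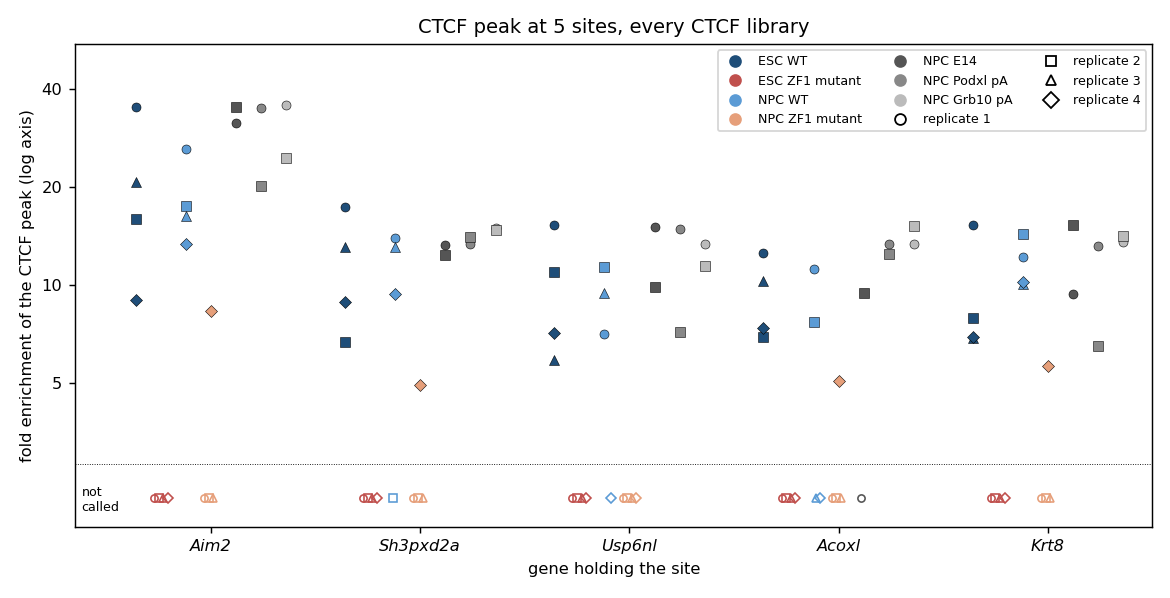
Fold enrichment of the CTCF peak (log axis) at the 5 sites in all 22 CTCF libraries, with colour for cell and line, marker shape for replicate, and open markers at the bottom where no peak was called. The ZF1 mutant ESC markers are all open by the choice of the sites, and the filled ZF1 mutant NPC markers, at 4 sites, all come from replicate 4.

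In ZF1 mutant ESCs none of the 20 combinations of site and library held a call, as the rule requires. An uncalled site has no value in a peak list, so the fold there is known only to lie below what the caller needed. At the lowest background of each library, the ZF1 mutant replicates 1 to 4 called peaks with as few as 8, 5, 5 and 12 fragments, or folds of 3.40, 3.93, 4.31 and 3.84. These limits lie under every WT fold above, though the caller also asks for a minimum length, and a higher local background raises the limit. ZF1 mutant replicate 1 had 45941 peaks, more than any WT library, and called 99.5% of the 8363 sites. The other 3 ZF1 mutant libraries called 90.2%, 74.3% and 82.8% of them.

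The sites were chosen for having no ZF1 mutant ESC call, which held for 0.323% of the 8363 sites. That sites of like strength rarely had this pattern follows from the rule and is given as a description. Among the 1756 other sites whose WT percentile lay within 5 points of that of Aim2, 78.7% were called in all 4 ZF1 mutant ESC libraries and 0.0569%, or 1 site, in none. The share called in all 4 was 56.2% around Sh3pxd2a, 38.6% around Usp6nl, 37.1% around Acoxl and 35.5% around Krt8, each without the site itself, and the share called in none was at most 0.812% around these 5. The 27 lost sites had a median WT percentile of 51.1, and the 191 sites just outside the rule, called in 1 ZF1 mutant library, had one of 45.7. Sites called in all 8 ESC libraries had a median of 83.7.

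**Figure D2:**
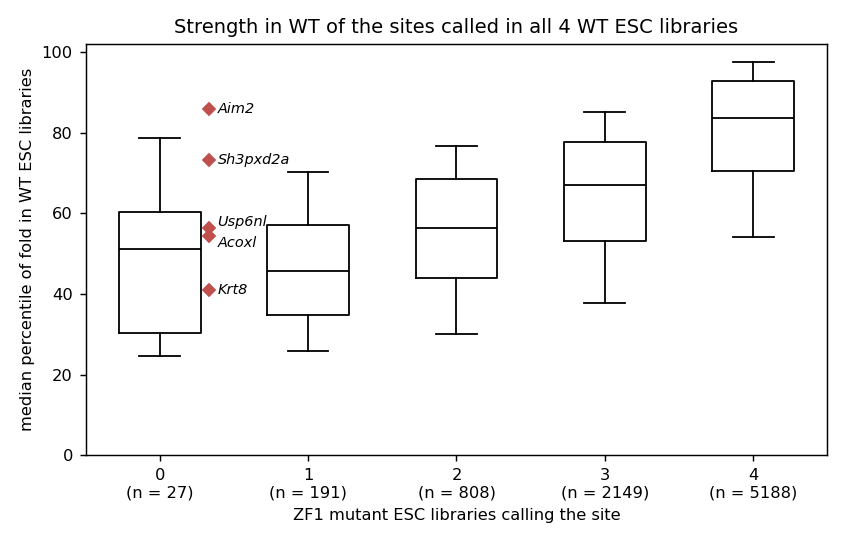
Median percentile of fold in the 4 WT ESC libraries for the 8363 sites called in all of them, by the number of ZF1 mutant ESC libraries that called the site. Boxes span the quartiles, whiskers reach the outermost sites within the 10th and 90th percentiles, and diamonds mark the 5 genes. The median climbs from 45.7 at 1 library to 83.7 at 4, and Aim2 lies above the upper whisker of the 27 sites called in none.

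The NPC libraries were not used to choose the sites. In WT NPCs the sites were called in 16 of 20 combinations of site and library, and in ZF1 mutant NPCs in 4 of 20, a difference of 60 percentage points. Calls were fewer in the mutant over all sites too, with a mean of 3.597 of 4 WT and 2.64 of 4 ZF1 mutant NPC libraries per site over the 8363 sites, and 3.15 and 0.407 over the 27 lost ones. Aim2 and Krt8 were called in 4 of 4 WT and 1 of 4 ZF1 mutant NPC libraries, Sh3pxd2a in 3 and 1, Usp6nl in 3 and 0 and Acoxl in 2 and 1. Fisher's exact test per site (two-sided, 4 against 4) gave p = 0.143 for Aim2, Usp6nl and Krt8, 0.486 for Sh3pxd2a and 1 for Acoxl. After Benjamini-Hochberg adjustment over all 49977 NPC sites every adjusted p was 1. The smallest p that 4 against 4 allows is 0.0286, reached unadjusted by 226 sites (0.452%), and no site passed after adjustment (0%).

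All 4 calls in ZF1 mutant NPCs came from replicate 4. Among the libraries numbered 4 the direction turned, with 80% of the 5 sites called in the ZF1 mutant and 60% in WT, while replicates 1 to 3 had 100%, 80% and 80% in WT and 0% in the ZF1 mutant. In the mutant library Aim2 had a fold of 8.32, Sh3pxd2a 4.93, Acoxl 5.06 and Krt8 5.63. The WT NPC folds at Aim2 were 26.2, 17.4, 16.3 and 13.3, and those at Krt8 were 12.2, 14.3, 10.0 and 10.2, so that the single mutant value lay below every WT value at both. Sh3pxd2a had 13.9, 13.0 and 9.37 in WT replicates 1, 3 and 4, all of which lay above the mutant value. Acoxl had 11.2 and 7.69 in WT replicates 1 and 2 and no call in WT replicates 3 and 4, so that in replicate 4 the mutant had a peak there and WT had none. Usp6nl, with WT folds of 7.06, 11.3 and 9.41 in replicates 1 to 3, was called in no ZF1 mutant library of either cell type. ZF1 mutant NPC replicate 4 had 33452 peaks, against 5755 to 13639 in the other 3. It called 89.5% of the 8363 sites, while replicates 1 to 3 called 58.7%, 74.2% and 42%. The part of depth in the ZF1 mutant NPC calls was not tested. Without this library the difference was 80 percentage points. With each NPC library cut to its 5755 strongest peaks, 0 ZF1 mutant libraries called any of the 5 sites, replicate 4 included. WT libraries then called Aim2 in 4, Sh3pxd2a and Krt8 in 3, Acoxl in 1 and Usp6nl in 0 of 4. Of all sites called in 4 WT libraries at this cut, 52.9% were called in all 4 ZF1 mutant ones. The mutant replicate 4 peaks at Aim2, Sh3pxd2a, Acoxl and Krt8 lay at fold percentiles of 71.8, 25.3, 27.4 and 37.7 before the cut. Their removal could thus be foreseen and is no test of depth.

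All 5 sites were called in 1 or no ZF1 mutant NPC library, as were 25 of the 27 lost sites (92.6%), against 17% of the 8363 sites. Among sites of like strength in WT ESCs that share was 6.09% around Aim2, 17.7% around Sh3pxd2a, 33.7% around Usp6nl, 34.9% around Acoxl and 39.9% around Krt8. ESC and NPC libraries of a line derive from the same clone, so the cell types are not independent sources for the mutant.

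The NPCs without degron called the sites almost throughout. The E14 libraries called them in 9 of 10 combinations and the Podxl pA and Grb10 pA libraries in 10 of 10 each, the exception being Acoxl in E14 replicate 1. These 6 libraries called 80.3% to 95.2% of the 8363 sites and 55.6% to 96.3% of the 27 lost ones. Aim2 was the tallest there too, with folds of 31.3 and 35.3 in E14, 34.9 and 20.1 in Podxl pA and 35.7 and 24.6 in Grb10 pA. Over all 22 CTCF libraries, Aim2 and Krt8 were called in 15, Sh3pxd2a in 14, Usp6nl in 13 and Acoxl in 12.

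Cohesin peaks were called in both lines, but not at every site that lacked a CTCF peak. In ZF1 mutant ESCs, Smc3 was called at Aim2 and Acoxl in 2 of 2 libraries and at Sh3pxd2a in 1 of 2. Usp6nl and Krt8 had no Smc3 or Rad21 peak there. In ZF1 mutant NPCs both Smc3 libraries called all 5 sites. Aim2 overlapped a Smc3 peak in all 14 Smc3 libraries and a Rad21 peak in 7 of 8. In ESCs the Smc3 fold at Aim2 was 12.7 and 7.24 in WT and 13.2 and 9.95 in the ZF1 mutant, so that the values of the 2 lines overlapped. Both ZF1 mutant Rad21 ESC libraries called Aim2, at folds of 5.62 and 4.57, and there it was the only Rad21 peak of the window. In NPCs the Smc3 fold at Aim2 was 41.5 and 22.1 in WT, 48.0 and 40.6 in the ZF1 mutant, and 13.7 to 21.3 in the 6 libraries without degron. In all 10 Smc3 NPC libraries it was the tallest Smc3 peak within 100 kb of Aim2.

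Rad21 calls were sparse in general, at 36% of combinations of site and library over the 8363 sites in WT ESCs, 12.1% in ZF1 mutant ESCs, 32.8% in WT NPCs and 29.3% in ZF1 mutant NPCs. Acoxl also overlapped a Smc3 peak in all 14 libraries, with folds of 7.28 and 4.78 in WT ESCs against 6.07 and 6.02 in ZF1 mutant ESCs, and no Rad21 peak in 8. Usp6nl overlapped Smc3 in 11 of 14 libraries, namely in all 10 NPC libraries and in 1 WT ESC library, and Rad21 in 2 of 8. Its Smc3 folds in NPCs were 12.8 and 6.27 in WT and 16.6 and 10.3 in the ZF1 mutant. Krt8 differed in that Smc3 was called there in 7 of 10 NPC libraries and in 0 of 4 ESC libraries. Its NPC folds were 8.41 and 4.73 in WT and 11.9 and 11.6 in the ZF1 mutant, a difference that was not tested. Sh3pxd2a had the least cohesin, with Smc3 in 4 of 14 libraries at folds of 3.75 to 6.73 and no Rad21 peak.

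**Figure D3:**
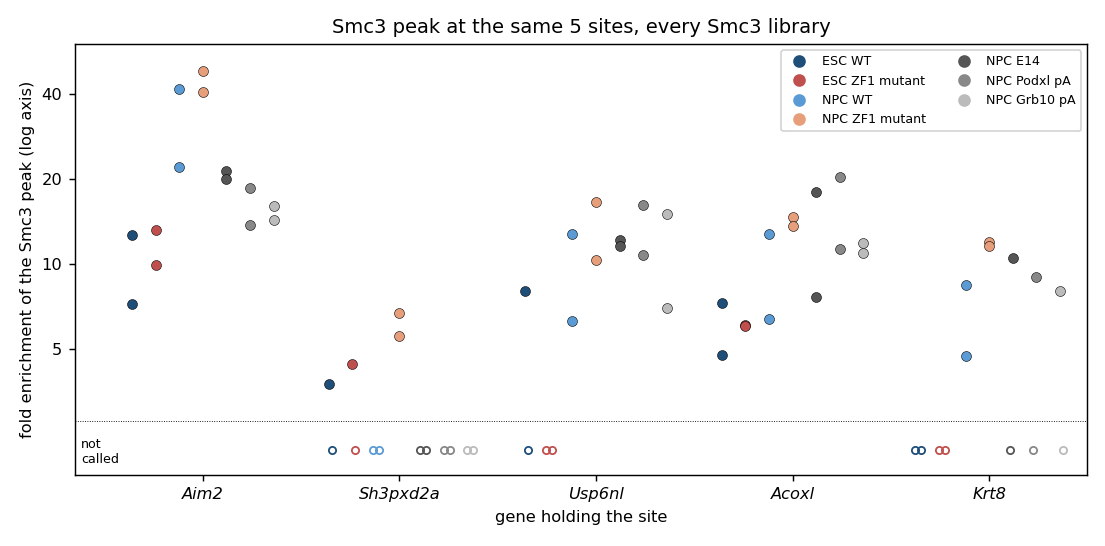
Fold enrichment of the Smc3 peak (log axis) at the 5 sites in all 14 Smc3 libraries, 2 per group, with open markers at the bottom where no peak was called. Aim2 and Acoxl have a peak in all 14, and Krt8 has peaks in NPCs alone among the libraries run.

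Summed over the 5 sites, Smc3 was called in 6 of 10 combinations in WT and 5 of 10 in ZF1 mutant ESCs, and in 8 of 10 and 10 of 10 in NPCs. Over all 8363 sites the same shares were 60.9% and 68.5% in ESCs and 74.5% and 88% in NPCs, so both the 5 sites and the whole set had more Smc3 calls in ZF1 mutant NPCs. The ZF1 mutant Smc3 NPC libraries had 30516 and 34104 peaks and the WT ones 13710 and 27798, and the part of this in the calls was not tested. The 27 lost sites had Smc3 in 35.2% of combinations in WT and 37% in ZF1 mutant ESCs. With 2 libraries against 2, the smallest two-sided exact p is 0.333, so these differences have no test.

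**Figure D4:**
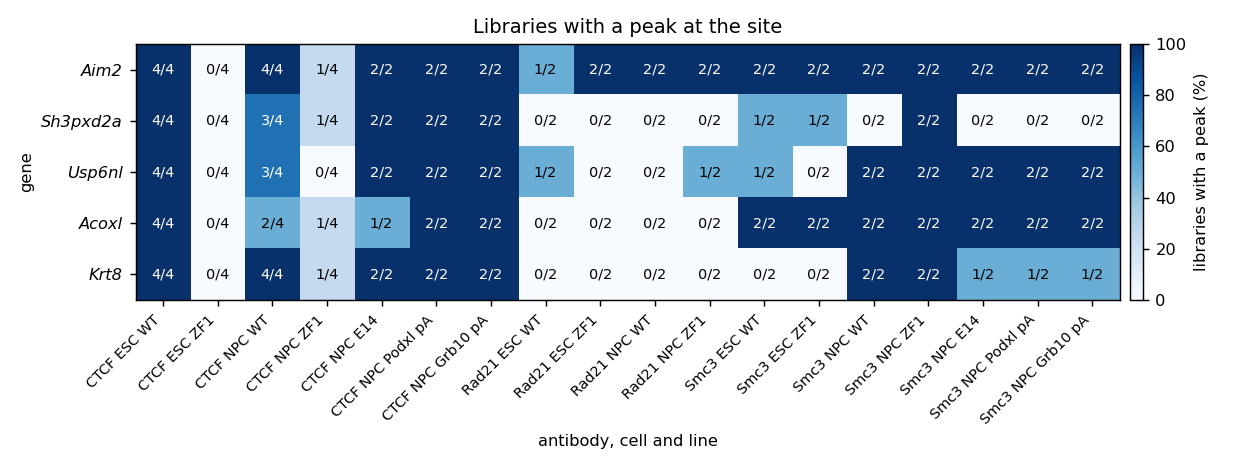
Calls at each of the 5 sites out of the libraries of a group, for every antibody, cell and line, with shading for the percentage. The CTCF columns are mostly dark except for the ZF1 mutant ones, where 0 to 1 of 4 libraries called a site, while the Smc3 NPC columns are dark for Aim2, Usp6nl and Acoxl.

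The surroundings of the 5 sites ranged from almost empty to dense. Within 100 kb of the gene bodies, the 22 CTCF libraries called 83 other sites, 6 around Aim2, 35 around Sh3pxd2a, 8 around Usp6nl, 15 around Acoxl and 19 around Krt8. The windows differed in length, from 208 kb at Krt8 to 485 kb at Acoxl. Per 100 kb there were 1.90, 8.66, 2.47, 3.09 and 9.14 sites in the same order. In ESCs, 16 of the 83 were called in all 4 WT libraries, and 14 of the 16 (87.5%, Wilson 95% interval 64.0% to 96.5%) were called in all 4 ZF1 mutant libraries as well, against 62% of all 8363 sites. In NPCs the same count was 8 of 15 (53.3%, 30.1% to 75.2%), against 26.6% of 8872 sites, and none of the 15 was without a ZF1 mutant NPC call. The intervals treat sites as independent draws and cover counting error only. Over the genome, the share called in all 4 ZF1 mutant ESC libraries rose with WT height, from 35.5% around percentile 41 to 78.7% around 86. Sites called in all 8 ESC libraries had a median WT percentile of 83.7, against 75.9 over the 8363. The neighbours were not matched by height, so whether they differ from sites of like height was not tested.

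Around Aim2 and Acoxl no other site was called in all 4 WT ESC libraries. The neighbour of Aim2 called in the most CTCF libraries, 16 of 22, lay 53702 bp away, near Ackr1, which encodes an atypical chemokine receptor, and was called in 3 of 4 WT and 2 of 4 ZF1 mutant ESC libraries. The neighbour of the Acoxl site called in the most, 17 of 22, lay 43829 bp away near the end of the gene, 3177 bp upstream of Bcl2l11, and was called in 2 of 4 WT and 3 of 4 ZF1 mutant ESC libraries. Both were singled out after their values were seen. At these 2 genes the lost site was thus the only one called throughout WT ESCs.

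Around Usp6nl the one other site called in all 4 WT ESC libraries lay 63891 bp away, outside the gene, and all 4 ZF1 mutant ESC libraries called it. Its median fold was 13.19 in WT and 12.05 in the ZF1 mutant. In NPCs it was called in 4 of 4 WT and 2 of 4 ZF1 mutant libraries.

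Around Sh3pxd2a 8 other sites were called in all 4 WT ESC libraries, and 7 of them in all 4 ZF1 mutant ones. The nearest lay 4520 bp from the lost site in an intron of the same gene, and it was also the tallest of the window and was called in all 22 CTCF libraries. Its folds in ESCs were 77.5, 38.2, 42.3 and 18.0 in WT and 33.8, 46.4, 15.0 and 11.8 in the ZF1 mutant, so the groups overlapped. It overlapped Smc3 in all 14 libraries, where the lost site did in 4. On the other side, the nearest site called throughout WT ESCs lay 103068 bp away in the UTR at the start of Sh3pxd2a and was called in all 8 ESC libraries. In introns of Stn1 lay 2 of the 8 sites. This gene encodes a subunit of a telomere replication complex. One of them, 142684 bp from the lost site, was called in all 22 CTCF libraries. The other, 141633 bp away, was called in 4 of 4 WT and 1 of 4 ZF1 mutant ESC libraries and so fell just outside the rule. Its WT folds were 9.79, 5.07, 6.46 and 4.37, lower than those of the lost site in each replicate, and ZF1 mutant replicate 1 had 6.76 there.

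Around Krt8, 7 other sites were called in all 4 WT ESC libraries, and 6 of them in all 4 ZF1 mutant ones. Among them, 4 were called in all 22 CTCF libraries, of which 2 lay between Krt78 and Krt8, 1 upstream of Eif4b, which encodes a translation initiation factor, and 1 in coding sequence at the start of Tns2, which encodes tensin 2. The Tns2 site had the highest median percentile of the window in WT ESCs, 99.3. The seventh, 33675 bp from the lost site, was called in 2 of 4 ZF1 mutant ESC libraries. In NPCs it was called in 2 of 4 WT and 0 of 4 ZF1 mutant libraries. Of the keratin genes in the window, Krt8 held 2 CTCF sites, Krt79 and Krt4 held 1 each that no WT ESC library called, and Krt18 and Krt78 held none. The site in Krt4, which was not on the list of keratins and was added after its values were seen, was called in 2 of 4 ZF1 mutant ESC libraries and in 1 ZF1 mutant NPC library.

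The second site of Krt8, in an intron 1346 bp from the lost one, differed from it in the ZF1 mutant line and in the lines without degron. It was called in all 16 CTCF rescue libraries, in 0 of the 6 CTCF libraries without degron and in 0 of 22 Rad21 and Smc3 libraries. Its folds in ESCs were 46.9, 30.7, 32.0 and 17.1 in WT and 21.9, 54.6, 15.2 and 9.84 in the ZF1 mutant, and in NPCs they were 9.87 to 27.04. The closest match to the core motif within 50 bp of its summit had 4 mismatches. Of 2122 sites called in all 16 rescue libraries, 94 (4.43%) were called in none of the 6 libraries without degron and 1883 (88.7%) in all 6. No cohesin peak was called in any of 22 libraries at 32 of the 94 (34%), against 35 of the 1883 (1.86%). The lost site of Krt8, in contrast, was called in all 6 of the libraries without degron. The rescue lines differ from the other NPC lines in clone, transgene and treatment at once, and these cannot be told apart.

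**Figure D5:**
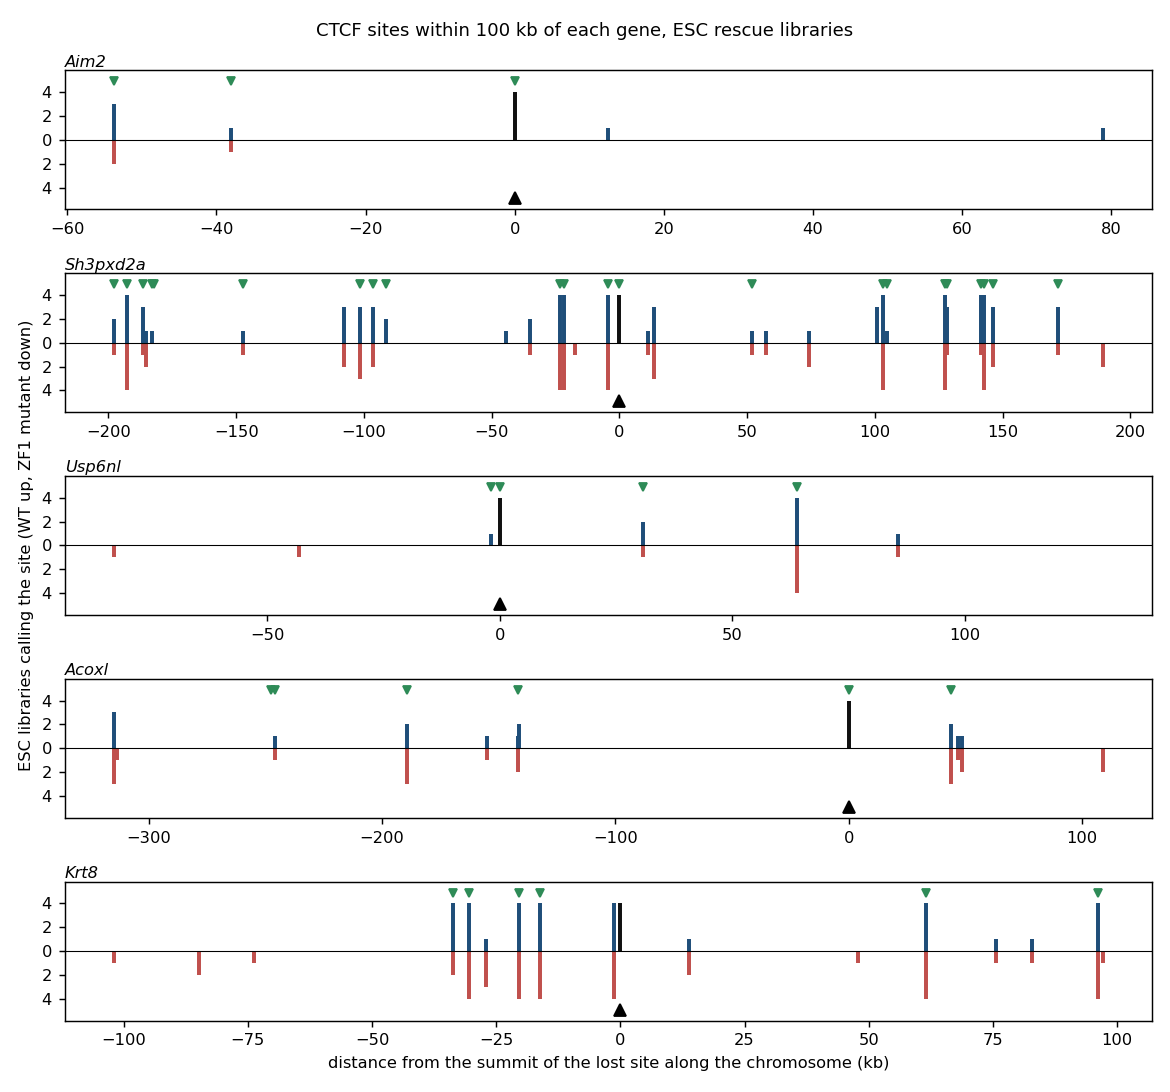
CTCF sites within 100 kb of each gene by distance from the summit of the lost site (kb), with bars up for WT and down for ZF1 mutant ESC libraries that called the site. The black bar and black triangle mark the lost site, and green triangles mark sites that overlap a Smc3 peak in at least 1 of 4 Smc3 ESC libraries. Aim2 and Acoxl have no other bar that reaches 4 upward, and Sh3pxd2a and Krt8 have 8 and 7.

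The heights of the neighbours called in all 8 libraries were compared by limma after the folds of each library had been ranked and the ranks turned into normal scores. In ESCs none of the 14 neighbours passed an adjusted p of 0.05, against 2 of 5188 sites over the genome (0.0386%), and 434 sites had an unadjusted p under 0.05. In NPCs none of 8 neighbours passed, against 0 of 2359 sites (0%) and 177 at an unadjusted p under 0.05. For none of these neighbours were the WT and ZF1 mutant scores fully apart, as they were at 5.3% of sites in ESCs and 5.55% in NPCs. The largest difference in ESCs was that of a site between Krt78 and Krt8, 16138 bp from the lost site. It was -1.23 ± 0.44 (ZF1 mutant minus WT, SE, n = 4 per group, limma adjusted p = 0.473). In a limma fit with the replicate number as a block, this site had an adjusted p of 0.125. At the strongest Sh3pxd2a neighbour, 4520 bp from the lost site, the difference was -0.38 ± 0.24 (limma adjusted p = 0.733). At the intronic Krt8 site called in all rescue libraries it was -0.33 ± 0.30 (limma adjusted p = 0.832). A missed threshold with 4 libraries a group does not show that heights were equal.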

How the data were processed

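CTCF, Rad21 and Smc3 ChIP-seq peak lists of 44 libraries were used. Per the labels and the study's methods, the authors aligned paired reads to mm10 with Bowtie2 and removed reads of mapping quality under 30 with SAMtools. They removed PCR duplicates with Picard and blacklisted regions with bedtools. Peaks were then called per library with MACS2 in paired-end mode at a q-value of 0.01. Its setting to keep all duplicates thus came after the removal by Picard. Versions, and which input served which library, are not given in the sources used here. The deposited columns are a fold enrichment ratio, a −log10 p-value and a −log10 q-value per peak.

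Peaks overlapping by at least 1 bp were merged into sites, and a library called a site where it held such a peak. Fold and p together return whole fragment numbers (within 0.002 of the −log10 p, 100% of 400 peaks checked in each library), since MACS2 adds 1 to fragments and background. Read totals are unknown. Summits are column 2 plus column 10, genes come from GENCODE vM21 and sequence from GRCm38.p6. Windows reach 100 kb beyond the gene. Sites were named by a fixed rule, namely the nearest on either side and the tallest site called in all 4 WT ESC libraries, sites called in all 22 CTCF libraries, sites just outside the rule or lost in NPCs, and sites passing limma. The members and lists were chosen with earlier results of these data known. Tests were Fisher's exact test and limma 3.58.1 (R 4.3.3) with Benjamini-Hochberg adjustment over all sites, tested on simulated data. Python 3.11.15, pandas 2.3.3 and SciPy 1.17.1 did the rest. Since the labels name no separate cultures, p-values measure the spread between samples.

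Same-numbered WT and ZF1 mutant libraries deviated together, with correlations of 0.386 to 0.544 over 5188 ESC sites and 0.312 to 0.555 over 2359 NPC sites. A fit with the replicate number as a block was therefore tried. Fisher's test, and the limma values given without mention of the block, took no account of the replicate number. Other alternatives were a stricter q-value, summit distance, equal peak numbers, deep or shallow replicates alone, each library left out, other windows and other motif limits.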

Additional observations from a re-analysis of the deposited data

Results flagged for a closer look

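In groups of 4 libraries, 82 were examined for a single library far from the other 3. The measure was Dixon's ratio of gap to range at its 95% critical value, and 12 stood out. That value holds for independent normal measurements, which tied counts and percentiles are not, so the 12 are not set against a chance rate. The causes were not tested. At lost sites, the percentile of fold at Sh3pxd2a was 14.8 in WT ESC replicate 2 against 72.3 to 77.4 in the others. The fold at Krt8 was 15.3 in WT ESC replicate 1 against 6.85 to 7.88, and its percentile was 59.8 in WT NPC replicate 3 against 82.3 to 86.7. Of the counts of neighbouring sites, 4 stood out, namely 2 around Usp6nl in WT NPC replicate 3 against 1 in each other, 10 around Acoxl in ZF1 mutant ESC replicate 1 against 3, 11 around Krt8 in WT ESC replicate 1 against 7, and 15 around Krt8 in ZF1 mutant NPC replicate 4 against 6 to 7. The libraries with the higher ESC counts and the ZF1 mutant NPC one were also those with the most peaks of their groups. Among neighbours of the Sh3pxd2a site, the percentile was 45.1 in WT ESC replicate 4 against 89.0 to 95.7 at the site 21734 bp away, 72.2 in WT NPC replicate 4 against 94.4 to 98.1 at the site 4520 bp away, 57.8 in WT NPC replicate 3 against 92.2 to 92.6 at the site 103068 bp away, and 11.4 in ZF1 mutant ESC replicate 2 against 85.2 to 94.2 at the Stn1 site 142684 bp away. At the Tns2 site 96102 bp from the Krt8 site it was 98.7 in WT NPC replicate 3 against 99.6 to 99.8.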

How the results depend on the processing

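All 5 sites kept the pattern that chose them at a −log10 q of at least 5 and with summits within 200 bp. The stricter q could not change it, since it only removes peaks and the lowest WT ESC −log10 q at these sites was 5.55. Subsets of the libraries that chose the sites, such as replicates 1 and 4 alone, hold the pattern by construction and say nothing of its stability. With each library cut to the 11189 strongest peaks of the smallest one, 1 of 5 was left, Aim2, because 1 to 3 WT libraries called the others, while still no ZF1 mutant library did. Leaving out 1 library gave 5 by the same construction. The NPC difference of 60 percentage points was 40 in replicates 1 and 4 alone, 80 in replicates 2 and 3 alone, 55 at 5755 peaks per library, where the Usp6nl site had no call left in either line and its difference went from 75 to 0, and 53.3 to 80 with 1 library left out, the highest being without ZF1 mutant replicate 4. The share of ESC neighbours kept (87.5%) was 62.5% in replicates 2 and 3 alone, against 49.2% of all sites, and 58.3% to 87.5% with 1 library left out, the lowest without WT replicate 4, against 38.2% of all sites. With replicates 1 and 4 alone the ESC share was 84.2%, close to the 80.9% of all sites. The NPC share (53.3%) was 100% at 5755 peaks per library, on 5 neighbours, against 52.9% of all sites, and 42.1% to 66.7% with 1 library left out. In replicates 1 and 4 alone it was 61.9%, against 65.9% of all sites, so the order of neighbours and all sites turned there. The cause was not tested. The replicate block in limma left 0 neighbours past the threshold in ESCs and 0 in NPCs, as did the fits on quantile-normalized fold, at the stricter q and with 1 library left out, and changed no call. Motif counts were 3 with at most 1 mismatch and 5 with at most 3. At an uncalled site the fold is known only to lie below what the caller needed there, and it is not a zero.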
